A study of Mus musculus with 8 samples.

Results

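The respiratory chain genes were described in 8 RNA-seq libraries, 4 of them with tranilast, an oral anti-allergic drug. According to the study, its RNA-seq was of liver from mice on a high-fat and high-cholesterol diet. The sample titles, Control and Control+tranilast, do not name the diet. Members were the rows whose symbol begins with Nduf, Sdha to Sdhd, Uqcr, Cox followed by a digit, Atp5, mt-Nd, mt-Co, mt-Cytb or mt-Atp, which gave 123 of the 22063 genes in the table. Of these, 110 lie in the nucleus, on 19 chromosomes, and 13 in mitochondrial DNA. The 4 control libraries and the 4 libraries labelled Control+tranilast carry replicate numbers 1 to 4 and the genotype WT. The study's methods describe male C57BL/6J mice and an oral vehicle once daily in the controls, and the dose of the sequenced animals is not named. Nothing in the labels says that the samples of a group are separate animals, so the p-values measure the spread between these samples, which may be technical.

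The respiratory chain sits in the inner mitochondrial membrane. Complex I (NADH dehydrogenase) and complex II (succinate dehydrogenase) pass electrons to ubiquinone, complex III (the cytochrome bc1 complex) passes them on to cytochrome c, and complex IV (cytochrome c oxidase) hands them to oxygen. The proton gradient that this builds drives complex V, the ATP synthase. Complexes I, III, IV and V each combine nuclear and mitochondrial DNA products, while complex II is built from nuclear genes alone, and a set of assembly factors, also nuclear, puts the complexes together.

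All 8 libraries are labelled liver, but hepatocyte markers were at or near 0 in them. Albumin (Alb) had at most 2 counts in any library, and none of the 9 hepatocyte markers in the table had over 17 counts. Their summed share of counts lay between 0 and 0.00013% in controls and between 0 and 0.00019% with tranilast. Most markers of macrophages were abundant, and 9 of 12 had at least 10 counts in every library, led by the lysozyme gene Lyz2 with 51267 to 68975 counts. The others, Mertk, C1qa and C1qb, had at most 1, 11 and 6 counts. Listed markers of stellate cells, liver endothelial cells and cholangiocytes had at most 7, 10 and 6 counts. The 3 markers of resident Kupffer cells (Clec4f, Vsig4 and Timd4) were at 0 in all libraries. The macrophage markers made up 0.971 to 1.03% of counts in controls and 0.942 to 1.0% with tranilast, and their part in the results below was not tested. As the libraries are bulk RNA, fewer cells of a type and less RNA per cell cannot be told apart. Library totals ran from 14585153 to 15618787 counts in controls and from 12053036 to 14679386 with tranilast, so that 3 counts, the upper limit that a count of 0 allows, correspond to 0.192 to 0.249 CPM (counts scaled to a common library total).

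The 13 mitochondrial DNA genes are packed so closely that some share bases, and these sequences are shown because reads over the shared stretch belong to both genes of a pair. They were read from the GENCODE M21 transcripts (GRCm38) with the shared bases in capitals. The first pair, mt-Atp8 and mt-Atp6, shares 43 bases, and the second, mt-Nd4l and mt-Nd4, shares 7. The stretches lie at chrM:7766-7969, chrM:7927-7986, chrM:10114-10173 and chrM:10167-10226 on the plus strand, in that order, and are protein coding.
mt-Atp8: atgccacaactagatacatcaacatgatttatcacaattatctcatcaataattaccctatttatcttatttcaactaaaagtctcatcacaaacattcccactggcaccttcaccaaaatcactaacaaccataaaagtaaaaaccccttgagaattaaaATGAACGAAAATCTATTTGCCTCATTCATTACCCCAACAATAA
mt-Atp6, first 60 bases: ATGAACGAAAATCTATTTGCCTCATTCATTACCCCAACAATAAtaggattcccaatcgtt
mt-Nd4l, last 60 bases: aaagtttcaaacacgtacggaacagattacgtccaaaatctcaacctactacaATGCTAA
mt-Nd4, first 60 bases: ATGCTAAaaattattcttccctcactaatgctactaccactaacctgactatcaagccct

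Respiratory chain genes were mostly lower with tranilast, by modest amounts, in both genomes. Of the 100 nuclear members that had enough counts to be tested, 44 fell and 6 rose, and all 13 mitochondrial DNA members fell. A call is an adjusted p under 0.05 by the quasi-likelihood F-test of edgeR, adjusted after Benjamini and Hochberg over all 10770 genes tested, with libraries scaled by TMM (trimmed mean of M values). Over those 10770 genes, 28.8% were called lower and 28.2% higher, so calls were frequent in this comparison. The median log2 fold change of tranilast over control was -0.154 for the nuclear members and -0.196 for the mitochondrial DNA members, against 0.0085 for all tested genes. No tested member passed a log2 fold change of 1.5 in size. The groups did not overlap in CPM for 44 of the 113 tested members, 35 nuclear and 9 mitochondrial, against 49.8% of all tested genes.

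These counts depend on how the libraries are scaled. Scaling by library size alone moved the median of all genes to 0.125, and 42.8% of all genes were then called higher and 17.6% lower. Under that scaling 14 of the 44 nuclear members were still lower and all 6 were still higher, 6 further nuclear members were called higher (Ndufa10, Ndufaf7, Ndufb5, Ndufv1, Sdha and Uqcrq), and 8 of the 13 mitochondrial DNA members were still lower while mt-Co3 was called higher. Measured from the median of all genes, the nuclear members lay at -0.162 and the mitochondrial DNA members at -0.204 under library size alone, against -0.163 and -0.204 under TMM. A change of scaling shifts the log2 fold changes of all genes by nearly the same amount. These distances are therefore nearly fixed in advance and are no check on the scaling. In 21 alternative settings, 12 nuclear members were called lower in each one: Atp5a1, Atp5b, Atp5c1, Atp5g1, Atp5g3, Atp5o, Atp5pb, Cox6b1, Ndufa5, Ndufa9, Ndufb8 and Ndufv3. The same held for the mitochondrial mt-Atp8, mt-Co2, mt-Cytb, mt-Nd1 and mt-Nd2, and Cox7a2l, Ndufa7, Sdhaf1 and Sdhaf4 were called higher in each one.

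**Figure D1:**
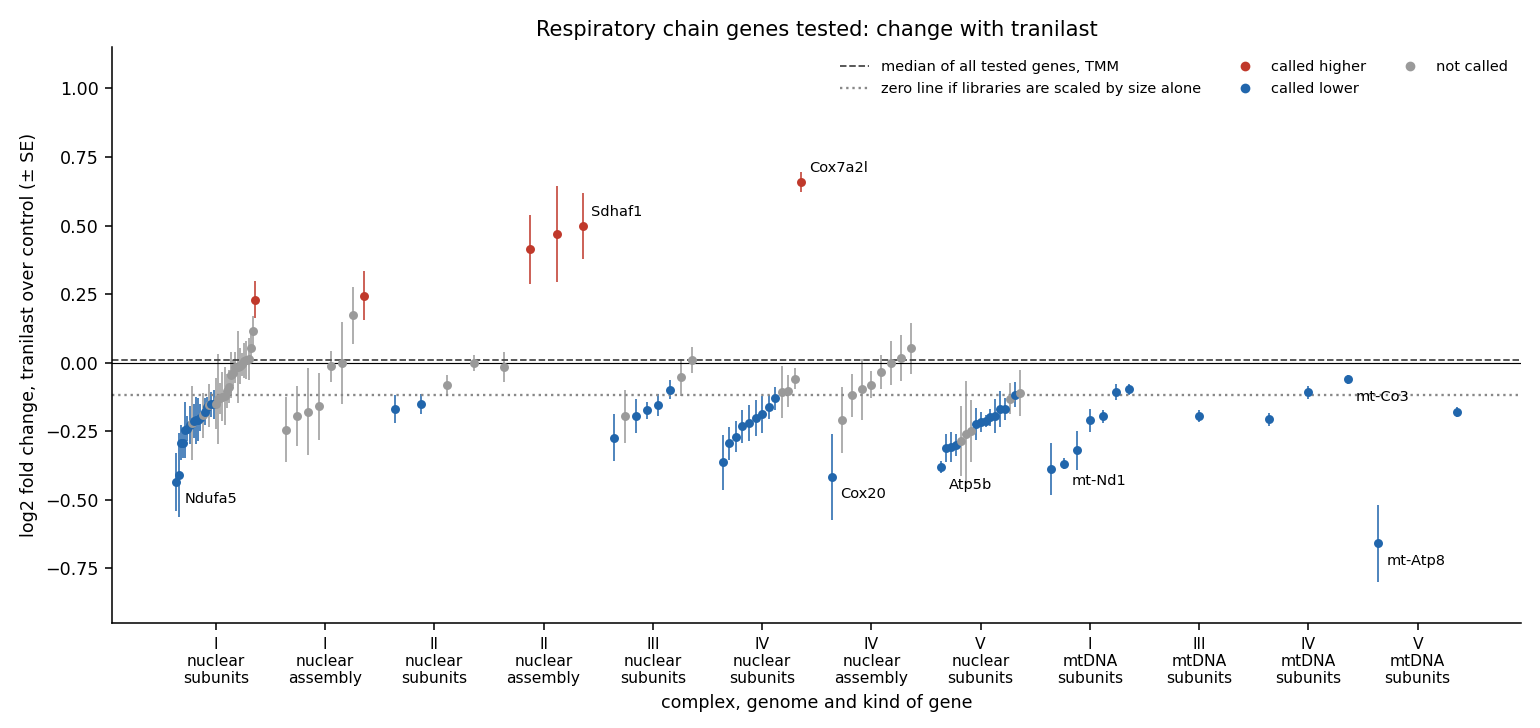
Log2 fold change of tranilast over control (vertical axis, ± SE, 4 libraries a group) for the 113 tested members, by complex, genome and kind of gene; blue points were called lower, red points higher and grey points neither. The 13 mitochondrial DNA genes lie below 0, most nuclear subunits do too, and Cox7a2l stands highest at 0.66; the dotted line marks where 0 would lie with scaling by library size alone.

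Nuclear subunits and assembly factors had different counts. Among the 79 tested nuclear subunits, 43 fell and 2 rose, or 54.4% and 2.5%, with a median log2 fold change of -0.169. Among the 21 assembly factors, 4 rose and 1 fell, or 19.0% and 4.8%, with a median of -0.016. Both shares of the assembly factors were below those of all tested genes, 28.2% called higher and 28.8% lower. Under library size alone, 14 of the 79 subunits and no assembly factor were called lower, against 17.6% of all genes. The 12 nuclear members then called higher included the assembly factors Ndufaf1, Ndufaf7, Sdhaf1, Sdhaf3 and Sdhaf4, against 42.8% of all genes. The large share of lower subunits thus held under TMM and not under that scaling. The difference between subunits and assembly factors was not tested. In the levels these kinds of gene were also apart, with a median of 62.6 FPKM (the deposited value per transcript length and library depth) for the tested subunits and 9.85 for the assembly factors, and 96 of the 113 tested members were above the median of all tested genes, 14.7 FPKM.

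In complex I, 15 of 37 tested nuclear subunits fell and Ndufa7 rose, with a median log2 fold change of -0.150; under library size alone 4 rose and 4 fell. Ndufa5, an accessory subunit of the arm that extends into the matrix, had 12.9, 15.2, 13.9 and 15.4 CPM in controls and 11, 10.1, 9.18 and 12.1 CPM with tranilast. All 4 tranilast libraries were below the controls, with a log2 fold change of -0.44 (SE 0.11, adjusted p = 0.0021 in edgeR's test). Ndufv3, a small accessory subunit of the NADH-oxidising part, fell from 37.7 ± 2.65 to 30.8 ± 1.2 CPM (SD, n = 4), which is -0.29 on the log2 scale (SE 0.063). The lower group also held core subunits of the matrix arm, Ndufs1, Ndufs3 and Ndufs7, at -0.15, -0.15 and -0.21 on the log2 scale. Ndufa7, another accessory subunit, rose from 27.0 ± 1.80 to 31.6 ± 1.70 CPM, a log2 fold change of 0.23 (SE 0.068, adjusted p = 0.0079 in edgeR's test). Other lower subunits were Ndufb8, Ndufs6, Ndufa9, Ndufs4, Ndufb4, Ndufb7, Ndufa8 and Ndufab1, from -0.29 to -0.18.

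Ndufb1 was also called lower, at -0.41 (SE 0.15), from 10.9 ± 1.86 to 8.19 ± 1.74 CPM. Its row is annotated as a long non-coding RNA and its exons overlap the antisense gene Cpsf2, which itself was at -0.14, so that without stated strand the reads of the pair cannot be told apart. Tranilast replicate 3 was lowest at 5.59 CPM, and without it the Ndufb1 value was -0.27 with an adjusted p of 0.10 in edgeR's test; without control replicate 2 it was -0.29 with an adjusted p of 0.12. The 21 complex I subunits that were not called, from Ndufa3 at -0.22 to Ndufv1 at 0.12, included Ndufv1, which carries the NADH binding site. The others were Ndufa1, Ndufa2, Ndufa6, Ndufa10, Ndufa11, Ndufa12, Ndufa13, Ndufb2, Ndufb3, Ndufb5, Ndufb6, Ndufb9, Ndufb10, Ndufb11, Ndufc1, Ndufc2, Ndufs5, Ndufs8 and Ndufv2. Of 8 assembly factors, Ndufaf1 rose from 17.8 ± 1.78 to 21 ± 1.66 CPM, a log2 fold change of 0.24 (SE 0.089), and Ndufaf2 to Ndufaf8 were not called. The Ndufaf1 call was lost without control replicate 1 (0.23, adjusted p = 0.056), control replicate 3 (0.19, 0.092), tranilast replicate 1 (0.23, 0.056) or tranilast replicate 4 (0.21, 0.082), by edgeR's test.

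In complex II, 2 of the 4 subunits were called lower and 3 of the 4 assembly factors higher, and the difference between these counts was not tested. Of the 4 subunits, Sdhb, which holds the iron-sulfur clusters, fell from 83.0 ± 6.06 to 73.8 ± 2.70 CPM (log2 fold change -0.17, SE 0.051), and the membrane anchor Sdhd fell from 169 ± 7.33 to 153 ± 3.82 CPM (-0.15, SE 0.037). The flavoprotein Sdha had 230.0 ± 2.37 CPM in controls and 229.7 ± 3.33 CPM with tranilast, and Sdhc, the other anchor, 92.0 ± 1.80 and 86.9 ± 2.03 CPM, and neither was called. Under library size alone neither Sdhb nor Sdhd was called (-0.05 and -0.03 on the log2 scale) and Sdha was called higher.

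Of the 4 complex II assembly factors, 3 rose, with a median log2 fold change over the 4 of 0.441. Sdhaf1, which takes part in inserting iron-sulfur clusters into Sdhb, had 10.7, 10.5, 9.56 and 9.84 CPM in controls and 14.4, 10.9, 17.0 and 15.1 CPM with tranilast, a log2 fold change of 0.50 (SE 0.12, adjusted p = 0.0019 in edgeR's test). The groups did not overlap, although tranilast replicate 2 came close to the controls. Sdhaf4, which acts on the flavinated Sdha, had 6.19, 5.28, 5.82 and 5.65 CPM in controls and 8.09, 7.46, 7.27 and 7.70 CPM with tranilast (0.41, SE 0.13), again with no overlap. Sdhaf3 rose from 3.23 ± 0.404 to 4.47 ± 0.548 CPM (0.47, SE 0.18). That call was lost, by edgeR's test, without control replicate 1 (0.39, adjusted p = 0.088), control replicate 4 (0.45, 0.066), tranilast replicate 1 (0.46, 0.062) or tranilast replicate 2 (0.40, 0.093). Sdhaf2 had 36.2 ± 0.828 and 35.8 ± 0.942 CPM and was not called. An exon of Sdhaf1 overlaps the antisense gene E130208F15Rik, which had at most 10.9 counts in a library, and an exon of Sdhaf4 overlaps the antisense gene Gm26524, not analysed here.

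In complex III, 5 of 8 nuclear subunits fell and none rose, with a median of -0.165, whereas under library size alone none was lower and Uqcrq was called higher. Uqcrc1, a core subunit that faces the matrix, had 207, 206, 214 and 209.7 CPM in controls and 188, 190.3, 180.0 and 183 CPM with tranilast, so the groups did not overlap (log2 fold change -0.17, SE 0.032, adjusted p = 1.4e-04 in edgeR's test). Uqcr11 fell from 20 ± 1.30 to 16.5 ± 1.40 CPM (-0.27, SE 0.086) and Uqcrb from 55.6 ± 4.59 to 48.5 ± 3.20 CPM (-0.20, SE 0.062), both small accessory subunits. Without control replicate 3, Uqcrb was at -0.16 with an adjusted p of 0.054 in edgeR's test. The Rieske iron-sulfur protein Uqcrfs1 was at -0.16 and Uqcrc2 at -0.10, both called lower. Uqcr10, Uqcrh and Uqcrq, between -0.20 and 0.01, were not called.

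Complex IV held the member with the highest log2 fold change. Cox7a2l (ENSMUSG00000024248), also known as a factor that joins complexes III and IV into supercomplexes, had 94.5, 99.5, 94.7 and 95.8 CPM in controls and 154, 148, 147 and 158 CPM with tranilast. The tranilast libraries were all well above the controls, 1.58-fold on average, with a log2 fold change of 0.66 (SE 0.037, adjusted p = 5.2e-11 in edgeR's test). Per length, its level rose from 85.7 ± 1.88 to 147 ± 4.93 FPKM (SD, n = 4). The gene lies at chr17:83501918-83517330 on the minus strand (GRCm38). Of the other 12 tested nuclear subunits, 9 fell, Cox7c, Cox6b1, Cox5b, Cox7a2, Cox7b, Cox6c, Cox5a, Cox8a and Cox6a1, and under library size alone 3 of them still did (Cox5b, Cox6b1 and Cox7c). Cox6b1, which lies on the side of cytochrome c, fell from 58.0 ± 4.79 to 47.3 ± 2.55 CPM (-0.29, SE 0.061), and Cox5b from 84.3 ± 7.35 to 70.0 ± 3.6 CPM (-0.27, SE 0.057). Cox7c had 54.1, 84.1, 62.4 and 59.1 CPM in controls and 49.3, 48.7, 46.6 and 56.8 CPM with tranilast (-0.36, SE 0.10), with control replicate 2 well above the other 7 libraries. Without it the Cox7c value was -0.22, still called. Of the 9 assembly factors, Cox20, a chaperone of the mitochondrial subunit mt-Co2, was called lower, from 9.78 ± 2.30 to 7.32 ± 0.834 CPM (-0.42, SE 0.16). It overlaps the antisense gene Hnrnpu, which was at -0.30, and its call was lost in 12 of the 21 alternatives, among them leaving out control replicate 2 (adjusted p = 0.064), control replicate 3 (0.15), tranilast replicate 1 (0.062), tranilast replicate 2 (0.084) or tranilast replicate 3 (0.059), by edgeR's test. Cox10, Cox11, Cox14, Cox15, Cox16, Cox17, Cox18 and Cox19, between -0.21 and 0.05, were not called.

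**Figure D2:**
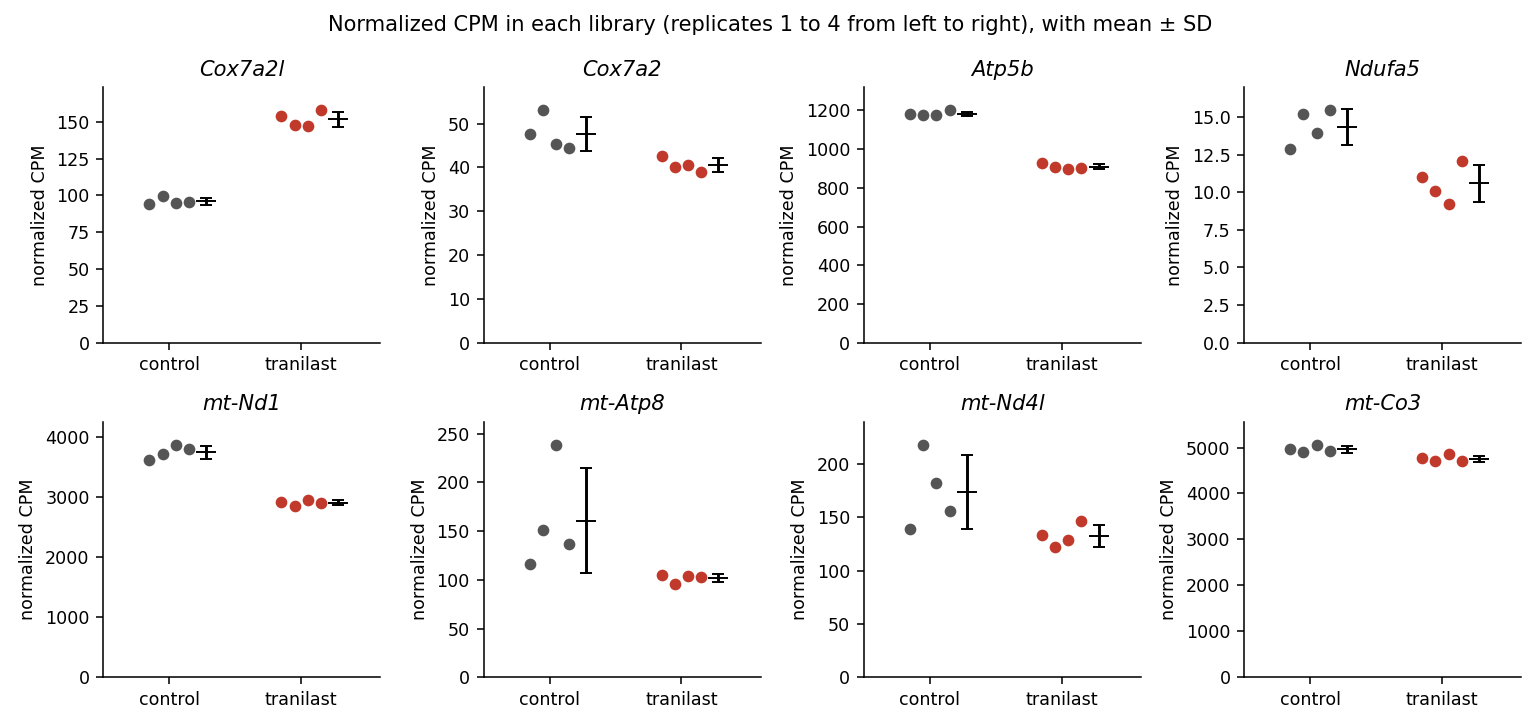
CPM scaled by TMM (vertical axes, from 0) in each of the 4 control (grey) and 4 tranilast (red) libraries for 8 members, with the mean ± SD in black beside the points. Cox7a2l is higher in each tranilast library, Atp5b and mt-Nd1 are lower in each, and mt-Atp8 spreads from 117 to 238 CPM among the controls.

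The 250 bases before the RefSeq start of Cox7a2l are printed because this gene ran against most subunits of its complex. They lie at chr17:83514334-83514583 on the minus strand (GRCm38.p6), and hold 52.0% G and C. In GENCODE M21 the stretch holds no exon but lies within the span given above for the gene, in an intron of a transcript that starts further upstream. None of the 3 motifs described further on is found in them.
Cox7a2l promoter: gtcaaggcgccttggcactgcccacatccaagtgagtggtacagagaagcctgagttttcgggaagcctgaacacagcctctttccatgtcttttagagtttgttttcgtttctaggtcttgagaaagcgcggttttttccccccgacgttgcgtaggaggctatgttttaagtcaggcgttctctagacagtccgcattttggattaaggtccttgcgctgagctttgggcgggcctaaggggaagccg

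Several subunits of complex IV exist as tissue isoforms, and the share of each isoform in the summed FPKM of its family was compared by an exact permutation test, two-sided, whose smallest p with 4 against 4 libraries is 0.0286. Cox7a2l took 54.6, 53.3, 55.6 and 56.7% of the Cox7a family in controls and 68.6, 68.7, 68.7 and 71.1% with tranilast, on average 55.1 ± 1.49% and 69.2 ± 1.21% (SD, n = 4, exact p = 0.0286). The groups did not overlap, and the difference of 14.2 percentage points stayed between 13.6 and 14.7 without any single library. Cox7a2, the form of most tissues, fell from 47.6 ± 3.83 to 40.6 ± 1.51 CPM (log2 fold change -0.23, SE 0.059), a call lost under library size alone (-0.12, adjusted p = 0.098 in edgeR's test), and the muscle form Cox7a1 had 2 to 9 counts. The heart and muscle isoform Cox6a2 was present with 234 to 311 counts, and its share of the Cox6a family was 10.9 ± 0.488% in controls and 11.1 ± 1.47% with tranilast (exact p = 0.80, n = 4). Other muscle markers were near 0, with at most 5 counts for Myh7, Ckm and Actn3 and none for Myh1 and Cox8b, and Itgad, which overlaps Cox6a2 on the other strand, had 0 counts in all libraries.

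Cox4i1, the common form of the largest nuclear subunit, made up 99.7 ± 0.0972% of its family in controls and 99.9 ± 0.0472% with tranilast. At -0.06 on the log2 scale it was not called, and it turned to 0.059 under library size alone; its exons overlap those of Emc8, which was at -0.23. Cox4i2, a form best known from lung, had 15, 11, 8 and 13 counts in controls and 5, 3, 1 and 4 with tranilast, or 47 against 13 in sum. It was too low for the test across genes. A fit without the filter on low counts gave a log2 fold change of -1.78 (SE 0.64, adjusted p = 0.019 in edgeR's test), and an exact permutation test of its log2 CPM, two-sided with n = 4 a group, gave the smallest possible p, 0.0286. Ndufa4, now counted as a subunit of complex IV, had 64.0 ± 5.47 and 59.6 ± 2.30 CPM and was not called (-0.10, and 0.013 under library size alone), although without control replicate 1 it was called lower (-0.15, adjusted p = 0.022 in edgeR's test). Its relative Ndufa4l2 had 0 to 5 counts. Cox6b2, Cox7b2, Cox8b and Cox8c were at 0 in all libraries beside their common forms Cox6b1, Cox7b and Cox8a. The other members not tested were Ndufb11b and a second row named Atp5o, at 0 in all libraries, and the pseudogene Cox5b-ps, with at most 1.06 counts.

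**Figure D3:**
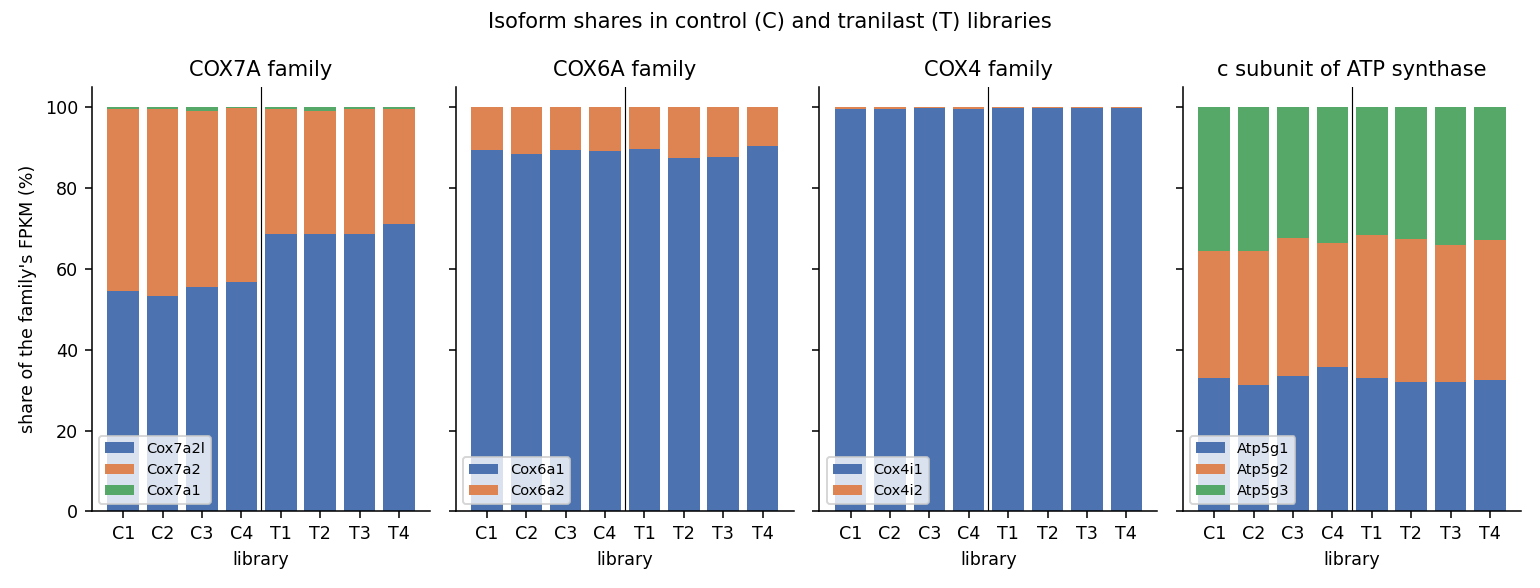
Share of each isoform in the summed FPKM of its family (vertical axis, percent) in control (C) and tranilast (T) libraries. Cox7a2l rises from 55.1% to 69.2% of the Cox7a family on average, while the shares of Cox6a2 overlap between the groups.

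In complex V, nuclear genes fell across the catalytic head, the stalks and the membrane part. Of 17 tested genes, 12 fell and none rose, with a median log2 fold change of -0.218, and 7 fell under library size alone. Atp5b (ENSMUSG00000025393, chr10:128083273-128090391 on the plus strand), the catalytic beta subunit, had 1179, 1178, 1177 and 1200 CPM in controls and 927, 906, 899.8 and 902 CPM with tranilast. The groups lay far apart for their spread, 1184 ± 10.8 against 909 ± 12.7 CPM (SD, n = 4), which is a fall of 23.2% and a log2 fold change of -0.38 (SE 0.021, adjusted p = 3.7e-11 in edgeR's test). The other subunits of the catalytic head were smaller in their change, with the alpha subunit Atp5a1 from 958 ± 10.5 to 827 ± 8.28 CPM (-0.21, SE 0.021) and the gamma subunit Atp5c1 from 194 ± 7.93 to 167 ± 4.8 CPM (-0.22, SE 0.036). In the stalk, Atp5o, which links the head to the peripheral stalk, fell from 126 ± 8.59 to 102 ± 6.30 CPM (-0.31, SE 0.051), and Atp5pb of the peripheral stalk from 299 ± 10.5 to 261 ± 3.37 CPM (-0.20, SE 0.031). Atp5j, Atp5l, Atp5j2, Atp5d and Atp5h were also called lower, from -0.22 for Atp5j to -0.12 for Atp5h, and Atp5e, Atp5k, Atp5md and Atp5mpl were not called. Nuclear genes of complex V took 0.343 to 0.358% of all counts in controls and 0.312 to 0.319% with tranilast, and these ranges did not overlap.

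The membrane ring of the ATP synthase is built from the c subunit, which 3 genes encode with the same mature protein. Atp5g1 fell from 113 ± 3.34 to 91.8 ± 3.53 CPM (log2 fold change -0.30, SE 0.040) and Atp5g3 from 118 ± 11.1 to 95.5 ± 3.93 CPM (-0.31, SE 0.055). Atp5g2 had 114 ± 11 and 104 ± 4.43 CPM and missed the threshold (-0.13, adjusted p = 0.054 in edgeR's test), which it passed without control replicate 1 (0.036) or control replicate 4 (0.0083). As shares of their summed FPKM the 3 genes were near one another, with Atp5g2 at 32.3 ± 1.71% in controls and 34.9 ± 0.782% with tranilast (exact permutation p = 0.057, n = 4).

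Values of the 13 mitochondrial DNA genes fell unequally. Ordered by FPKM over all 8 libraries, mt-Co1, the catalytic subunit of complex IV, was highest at 11520 FPKM, followed by mt-Co2, mt-Atp6, mt-Co3, mt-Cytb, mt-Nd1, mt-Nd4, mt-Nd2, mt-Nd5, mt-Nd6, mt-Atp8, mt-Nd4l and, at 469 FPKM, mt-Nd3. The neighbours mt-Atp6 (6463 ± 111 FPKM in controls, 6185 ± 96.9 with tranilast) and mt-Co3 (6073 ± 89.6 and 6309 ± 80.2) changed places between the groups. mt-Nd4l (562 ± 109 and 465 ± 35.7 FPKM) and mt-Nd3 (502 ± 53.8 and 435 ± 50 FPKM) did not differ beyond their spread in either group. As a set, the 13 genes took 5.12 ± 0.122% of counts in controls and 4.99 ± 0.0930% with tranilast, with overlapping ranges, and nuclear members 0.791 ± 0.0220% and 0.763 ± 0.0139%.

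Among the 7 mitochondrial subunits of complex I, mt-Nd1 (chrM:2751-3707), which forms part of the ubiquinone site, had 3618, 3712, 3868 and 3804 CPM in controls and 2913, 2854, 2957 and 2897 CPM with tranilast. This is a fall of 22.5%, with no overlap and a log2 fold change of -0.37 (SE 0.021, adjusted p = 6.0e-11 in edgeR's test). Its share of the FPKM of the 13 genes went from 7.62 ± 0.0566% to 6.65 ± 0.0866% (SD, n = 4). mt-Nd2 fell from 2066 ± 73.3 to 1804 ± 13.9 CPM (-0.20, SE 0.023). Low in level, mt-Nd3 went from 182 ± 20.1 to 146 ± 16.5 CPM and mt-Nd4l from 174 ± 34.4 to 133 ± 10.1 CPM. They were at -0.32 (SE 0.072) and -0.39 (SE 0.094), and their groups overlapped. mt-Nd4l shares bases with mt-Nd4, and how reads there were assigned is not stated. mt-Nd6, the gene of the other strand, was at -0.21 (SE 0.042), and its end overlaps mt-Nd5, so that reads there cannot be assigned without strand.

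mt-Nd4 and mt-Nd5, which form the far end of the membrane arm, fell by 0.10 and 0.11 on the log2 scale, but both turned to values just above 0 (0.019 and 0.0088) under library size alone. mt-Nd4 took 5.45 ± 0.108% of mitochondrial FPKM in controls and 5.73 ± 0.140% with tranilast. In complex III, mt-Cytb, the cytochrome b subunit, fell from 5893 ± 183 to 5149 ± 111 CPM (-0.19, SE 0.022). In complex IV, mt-Co2, which takes electrons from cytochrome c, fell from 5407 ± 143 to 4686 ± 174 CPM (-0.21, SE 0.024). mt-Co1 was at -0.11 (SE 0.024) and mt-Co3 at -0.06 (SE 0.017), and under library size alone these turned to 0.0081, not called, and 0.055, called higher (adjusted p = 0.0082 in edgeR's test). The share of mt-Co3 in mitochondrial FPKM, which no scaling between libraries changes, was 12.2 to 12.7% in controls and 12.9 to 13.5% with tranilast.

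In complex V, the values of the 2 genes that share bases differed in size of change. How reads over the shared bases were assigned is not stated, and their part in this difference was not tested. The values are per gene and are not shown to be levels of separate transcripts. mt-Atp6, which forms the proton channel, fell from 4585 ± 94.4 to 4048 ± 58.7 CPM (log2 fold change -0.18, SE 0.019). mt-Atp8, a small subunit of the membrane part, had 117, 151, 238 and 137 CPM in controls and 105, 95.3, 104 and 103 CPM with tranilast (-0.66, SE 0.14, adjusted p = 6.5e-04 in edgeR's test). In CPM the groups did not overlap, and control replicate 3 was far above the other controls. Without it the mt-Atp8 log2 fold change was -0.41, still called. mt-Atp8 went from 1.53 ± 0.470% to 1.09 ± 0.0411% of mitochondrial FPKM, a difference of -0.43 percentage points with narrowly overlapping ranges, and without control replicate 3 the difference was -0.21.

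**Figure D4:**
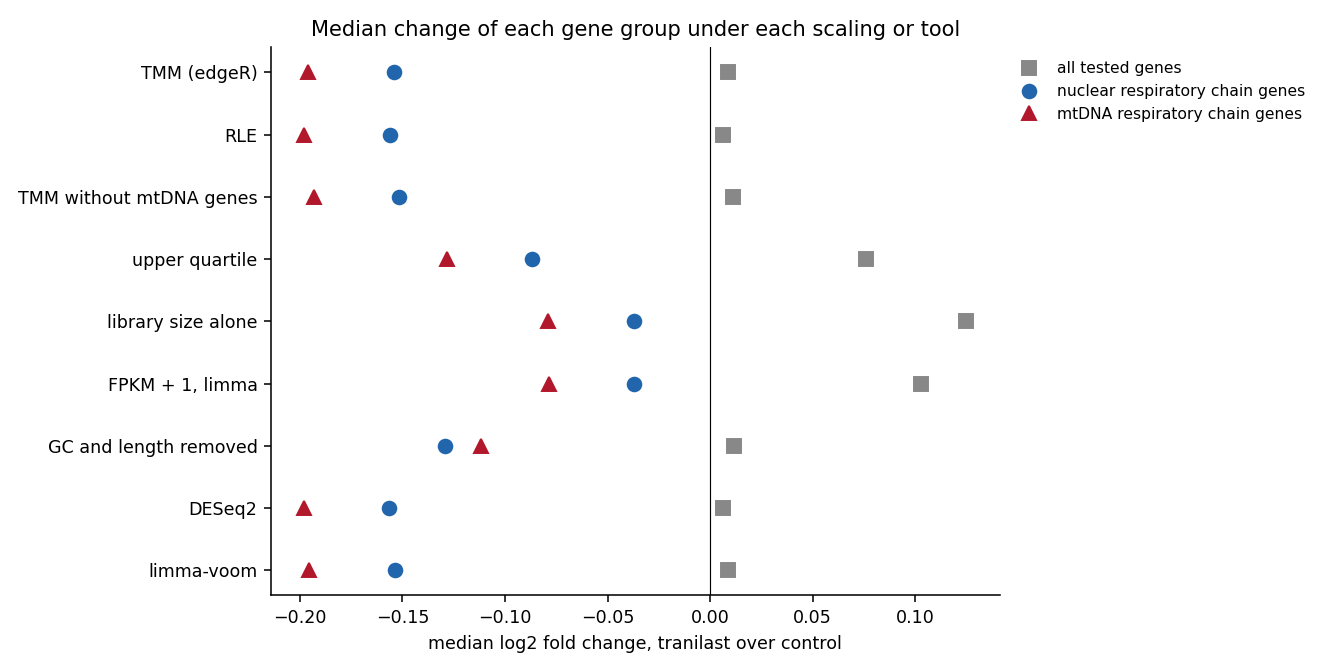
Median log2 fold change (horizontal axis) of nuclear members (circles), mitochondrial DNA members (triangles) and all tested genes (squares) under each scaling or tool. The nuclear median moves from -0.154 to -0.037 under library size alone, while the median of all genes moves from 0.0085 to 0.125.

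Short transcripts varied between libraries of a group more than long ones. The 100 tested nuclear members were split at their median length, 763 bases as implied by the ratio of counts to FPKM, into 50 shorter and 50 longer genes. In log2 CPM, the shorter members lay above their group mean by a median of 0.122 in control replicate 2 and 0.066 in tranilast replicate 4, and at -0.091 in control replicate 1 and -0.071 in tranilast replicate 3. The longer members deviated by 0.056, 0.036, -0.026 and -0.014 in these 4 libraries, in the same order. The 416 tested genes of that length in the whole table gave 0.094, 0.056, -0.067 and -0.039 in the same libraries. The median log2 fold change was -0.142 in the shorter and -0.156 in the longer members, where 2 rose and 19 fell, and 4 rose and 25 fell. Over all tested genes the shorter set had a median of -0.071 and the longer set of 0.012. Of the nuclear members, 33 were called lower without control replicate 2 and 49 without control replicate 1. Over the 13 mitochondrial DNA genes, log2 fold change and length correlated at 0.74 (Spearman), so shorter genes tended to fall more. In single libraries, their deviation from the group mean correlated with length at -0.78 (control replicate 2) to 0.92 (control replicate 4). With GC and length trends removed, mt-Co1, mt-Co3, mt-Nd4 and mt-Nd5 were not called, at -0.042, 0.030, -0.015 and -0.045. A part of length in these falls was not tested.

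**Figure D5:**
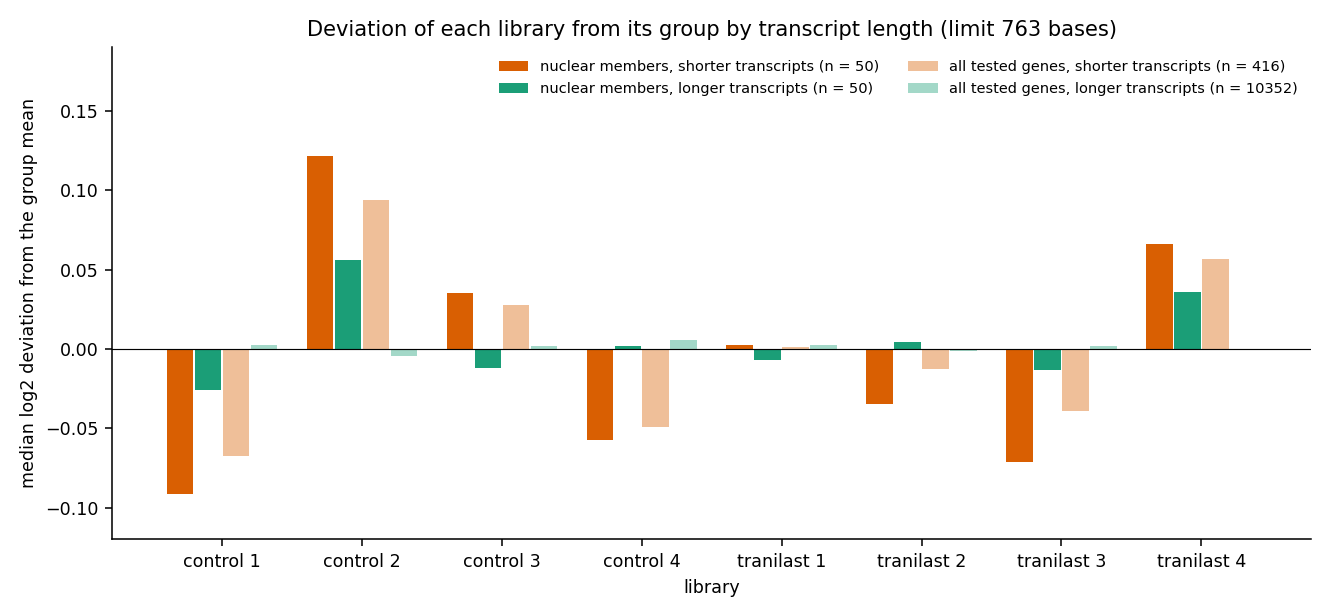
Median deviation of log2 CPM from the group mean (vertical axis) in each library for shorter and longer nuclear members and for all tested genes of the same lengths. Shorter members are high in control replicate 2 and tranilast replicate 4 and low in control replicate 1 and tranilast replicate 3, and all shorter genes show the same order of signs in these 4 libraries.

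The genes around the chain were counted in fixed lists, to be read against the 28.8% of all genes called lower and 28.2% called higher. Of 8 tested genes for other electron carriers, for ubiquinone synthesis (Coq7 and Coq9) and Aifm1, 4 fell and 2 rose. Cyc1, cytochrome c1 of complex III, fell from 117 ± 5.50 to 90.6 ± 3.5 CPM (log2 fold change -0.37, SE 0.043), and Coq7, a hydroxylase of ubiquinone synthesis, was at -0.47. Etfdh, which feeds electrons from fatty acid oxidation into ubiquinone, rose from 53.0 ± 2.44 to 72.5 ± 5.05 CPM (0.45, SE 0.054), and Coq9, a partner of Coq7, was at 0.43. Of 35 tested assembly factors outside the symbol rule, 10 rose and 4 fell, or 28.6% and 11.4%, with a median of 0.041, so that the share called higher was near that of all genes. Under library size alone 14 rose, or 40.0% against 42.8% of all genes, and 2 fell. Coa4 and Coa7, of complex IV, rose by 0.72 and 0.47 on the log2 scale. Higd1a, a factor of complex IV known to respond to low oxygen, fell from 31.2 ± 4.49 to 16.7 ± 1.43 CPM (-0.90, SE 0.098), and Uqcc2, of complex III, was at -0.29. Of 17 genes of the tricarboxylic acid cycle and pyruvate dehydrogenase, 8 fell and 3 rose, but 2 fell and 4 rose under library size alone. Idh3a was at -0.40 and Fh1 at -0.24, against 0.36 for Pdha1 and 0.16 for Pdhb. Of 7 tested carriers, 3 fell and 1 rose, led by the outer membrane channels Vdac1 (-0.43) and Vdac2 (-0.32), while 2 fell and 4 rose under library size alone. The uncoupling protein gene Ucp2 was called higher by 0.07, a call lost without any of 5 single libraries (control replicates 1, 2 and 4, adjusted p = 0.053, 0.093 and 0.057, and tranilast replicates 2 and 3, 0.085 and 0.070, in edgeR's test).

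Of 21 tested regulators of mitochondrial biogenesis, 6 fell and 4 rose, or 28.6% and 19.0%, against 28.8% and 28.2% of all genes. Under library size alone 6 fell and 8 rose, or 28.6% and 38.1%, against 17.6% and 42.8% of all genes. Nrf1, nuclear respiratory factor 1, had 52.1, 51.4, 49.4 and 48.6 CPM in controls and 30.8, 31.8, 33.3 and 34.7 CPM with tranilast, with no overlap and a log2 fold change of -0.62 (SE 0.054, adjusted p = 1.8e-08 in edgeR's test). Gabpb1, a subunit of nuclear respiratory factor 2, was at -0.38 (SE 0.063). Its partner Gabpa (-0.37) and the factor Yy1 (-0.26) were also called lower, and Tfam, which packages and transcribes mitochondrial DNA, was not (-0.10, adjusted p = 0.16 in edgeR's test, and 0.021 under library size alone); these 3 are named after their values were seen. Nrf1, Gabpa, Gabpb1 and Yy1 were called lower in each of the 21 alternatives. Ppargc1a, the best known coactivator of these factors, had at most 1 count. Mterf4 and Tefm, which act on mitochondrial transcription and ribosomes, were higher by 0.52 and 0.31, and the Tefm call was lost without control replicate 1 (adjusted p = 0.11), control replicate 3 (0.057), tranilast replicate 1 (0.057), tranilast replicate 2 (0.078) or tranilast replicate 4 (0.067), by edgeR's test. Of 15 genes that process or stabilise mitochondrial RNA, 5 fell and none rose, and 2 fell under library size alone. The shares called lower were 33.3% against 28.8% of all genes, and 13.3% against 17.6% under library size alone. Pnpt1, a ribonuclease of the mitochondrion, fell from 137 ± 7.78 to 100.5 ± 4.56 CPM (-0.45, SE 0.045), and Tbrg4 was at -0.27.

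Promoters were searched, on both strands, for the motifs of 3 of these factors, in windows of 250 bases before to 50 after the RefSeq start (GRCm38.p6), which were found for 88 of the 109 nuclear symbols. The motif TGCGCANGC of NRF1 was in 15 windows (17.0%) against 4.70% of 27025 genes, CCGGAAGT of GABPA in 9 (10.2%) against 4.31%, and AAGATGGCG of YY1 in 9 (10.2%) against 1.64%. At least 1 of the 3 was in 32 windows (36.4% against 9.93%), of which the Cox10 window held 2, those of GABPA and YY1, at places that do not overlap. Of 15 tested members with the NRF1 motif 7 fell and 2 rose, and of 69 without it 31 fell and 4 rose. Of 9 with the GABPA motif 4 fell, against 34 of 75 without, and of 9 with the YY1 motif 6 fell, against 32 of 75. A match describes letters and is not a shown binding site.

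These 5 stretches upstream of the start, outside M21 exons, are shown with the match in capitals, the first 4 for NRF1 and the last for GABPA. They are from members that were called lower (Ndufb4, Atp5l, Cox6a1 and Uqcr11, from -0.27 to -0.13 on the log2 scale) and from 1 that was not (Ndufs5, -0.12). All lie on the minus strand, at chr16:37654537-37654575, chr9:44920959-44920992, chr5:115349053-115349091, chr4:123718262-123718300 and chr10:80406865-80406902, in the order printed.
Ndufb4: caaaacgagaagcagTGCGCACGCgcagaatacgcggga
Atp5l: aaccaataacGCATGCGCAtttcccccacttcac
Cox6a1: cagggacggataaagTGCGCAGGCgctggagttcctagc
Ndufs5: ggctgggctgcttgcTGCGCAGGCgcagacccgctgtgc
Uqcr11: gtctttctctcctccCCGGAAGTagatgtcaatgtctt
In Atp5l the match is to the motif on the opposite strand. The Ndufs5 stretch holds a full match and the gene had 26.1 ± 2.04 CPM in controls and 23.9 ± 3.26 CPM with tranilast, with overlapping groups. The calls of Ndufb4, Atp5l, Cox6a1 and Uqcr11 were kept in 9, 15, 15 and 16 of the 21 alternatives, and none of them under library size alone. In Cox6a1, the call was also lost without tranilast replicate 3 (-0.09, adjusted p = 0.061 in edgeR's test). Matches that also lie upstream and outside M21 exons, in Cox16 (GABPA), Ndufaf4 (NRF1) and Ndufa6 (NRF1), are not printed. None of these genes was called, at -0.00084, -0.013 and 0.0066 on the log2 scale.

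Reads shared between genes limit some of these values. Of the 113 tested members, 52 have an exon that overlaps another gene, 42 of them nuclear.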

How the data were processed

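RNA was measured in 8 libraries, 4 a group, taken from the labels. The authors deposited, per gene and library, an estimated count and an FPKM value. Per the labels libraries were read on a Novaseq6000, while the methods name another Illumina instrument and poly-A selection; aligner, counter and genome build are not given in the sources used here. Estimated counts were rounded and fitted with edgeR 4.0.16 (filterByExpr, TMM, quasi-likelihood test, Benjamini-Hochberg adjustment over 10770 genes, threshold 0.05); CPM are scaled by TMM. The study's methods name limma, run here as an alternative (limma 3.58.1, log2 of FPKM plus 1 or 0.1), with DESeq2 1.42.0. Scripts were tested on simulated data. Members and gene lists were chosen with earlier results of these data known. Named were all mitochondrial DNA members, up to 3 called higher and 3 called lower per complex and kind of gene, tissue isoforms, and up to 2 each way per other list. Coordinates are from GENCODE M21 (GRCm38), which holds 21973 of the 22063 identifiers, and promoters from RefSeq. Each library held 12053036 counts or more, and limits from counts cover counting error only.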

Additional observations from a re-analysis of the deposited data

Results flagged for a closer look

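In each group of 4 libraries, the highest and the lowest value were set against the gap to their nearest neighbour. This marked 6 of 154 groups, where about 7.7, or 1 in 20, would be marked by chance, so no pattern is read from them. Atp5b was 1200 CPM in control replicate 4 against 1177 to 1179 CPM in the other controls, a gap that is small beside the difference from the tranilast libraries. Ndufb1 was 5.59 CPM in tranilast replicate 3 against 8.81 to 9.26 CPM in the other tranilast libraries, and Gabpb1 was 27.1 CPM in the same library against 31.5 to 32.4 CPM. mt-Nd4 was 3656 CPM in tranilast replicate 1 against 3584 to 3596 CPM. The share of Cox6a2 in its family was 11.6% in control replicate 2 against 10.5 to 10.7%, and that of Cox7a2l was 71.1% in tranilast replicate 4 against 68.6 to 68.7%.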

How the results depend on the processing

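The calls depended most on the scaling between libraries. In the main fit 44 of 100 nuclear members were lower and 6 higher, with a median log2 fold change of -0.154. Of all genes, 28.8% were lower and 28.2% higher. Upper-quartile scaling gave 20 lower and 7 higher with a median of -0.087, against 21.6% and 36.0% of all genes. Library size alone gave 14 lower and 12 higher with -0.037, against 17.6% and 42.8%. Limma on log2 FPKM plus 1 gave 12 lower and 10 higher with -0.037, against 15.4% and 36.8%. With plus 0.1 it gave 12 lower and 10 higher with -0.038, against the same shares. An adjusted p under 0.01 gave 29 lower, against 23.4%. Under upper-quartile scaling, library size alone and limma on FPKM, the nuclear share called lower was thus somewhat below that of all genes. Beside 13 lower mitochondrial DNA members with a median of -0.196, upper-quartile scaling gave a median of -0.128, library size alone 8 lower and 1 higher with -0.079, limma on log2 FPKM 5 lower with plus 1 and 6 lower with plus 0.1, both with -0.079, and removal of trends with GC content and length a median of -0.112.

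Leaving out each library in turn gave 33 to 49 lower and 4 to 7 higher nuclear members with medians from -0.174 to -0.114, and 13 lower and 0 higher mitochondrial DNA members with medians from -0.212 to -0.180. Of all genes, 26.5 to 27.8% were then lower and 25.7 to 26.9% higher. No filter on low counts gave 51 lower and 6 higher of 104 nuclear members, against 20.6% and 19.9% of all genes.

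These log2 fold changes turned from negative to positive, in the order library size alone, log2 FPKM plus 1 and log2 FPKM plus 0.1: Cox4i1 at 0.059, 0.059 and 0.059, Cox6a2 at 0.010, 0.0073 and 0.0074, Ndufa4 at 0.013, 0.016 and 0.016, Tfam at 0.021, 0.097 and 0.099, mt-Co1 at 0.0081, 0.0079 and 0.0079, mt-Co3 at 0.055, 0.055 and 0.055, mt-Nd4 at 0.019, 0.019 and 0.019, and mt-Nd5 at 0.0088, 0.0093 and 0.0093. With upper-quartile scaling Cox4i1 and mt-Co3 were at 0.0095 and 0.0057, and mt-Co3 was at 0.030 once GC and length trends were removed. The difference in the Cox6a2 share turned from 0.21 to -0.25 percentage points without tranilast replicate 2 and to -0.16 without tranilast replicate 3, and ran up to 0.76 without the others; leaving out libraries for shares was chosen after seeing the data.

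Whether replicate numbers pair the samples could not be decided from the values. Deviations of same-numbered libraries correlated at -0.056, -0.044, 0.008 and 0.107, and those of differently numbered libraries at -0.179 to 0.180. With the replicate number as a block, 44 nuclear members were lower and 6 higher, and 13 mitochondrial DNA members were lower and 0 higher, the counts without the block. Each library held 12053036 counts or more, and members under 10 counts, such as Cox4i2, were at its limit.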
